A study of Mus musculus with 6 samples.

Results

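Dendritic cells are the antigen-presenting cells that start T cell responses, and each of their lineages is recognised by a small set of transcription factors and surface receptors. Conventional dendritic cells (cDC) of both kinds carry the cytokine receptor gene Flt3 and the transcription factor gene Zbtb46. The cross-presenting cDC1 depend on Batf3 and Id2 and display Xcr1 and Clec9a, the cDC2 depend on Irf4, and plasmacytoid dendritic cells (pDC), the producers of type I interferon, depend on Tcf4 and display Siglech. Cd209a, a C-type lectin, marks dendritic cells that arise from monocytes as well as some cDC2. Cultures of bone marrow with GM-CSF are a known source of cells that resemble both macrophages and dendritic cells, which is why these genes bear on monocytic myeloid-derived suppressor cells (M-MDSCs).

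The 10 dendritic cell identity genes described here were selected by gene name from the 34745 genes of the count table, without MHC genes, and each matched 1 row. They were chosen with results of the comparison between groups already known, so their differences between groups are given as a description, without p-values. RNA was sequenced from M-MDSCs of C57BL/6 mice, with 3 WT libraries and 3 mTOR-/- libraries. The mTOR-/- cells came from Lyz-mTOR mice, in which mTOR flox/flox alleles are cut by a Cre recombinase expressed from the lysozyme promoter and thus in myeloid cells, while other cells keep mTOR. The WT mice were bought as C57BL/6 animals. The labels give bone marrow as the source and freshly sorted MDSCs as the cells, and the study describes M-MDSCs induced from bone marrow with GM-CSF and IL-6 in both groups and gated as CD11b+ Ly6G- Ly6C high. The mice's ages are not given in the sources used here. Neither the labels nor the study's text say whether a library came from 1 mouse or from pooled mice, so the spread between libraries, which is all that the p-values measure, may be partly technical.

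Library totals were 12317507 to 12903191 counts in the mTOR-/- group and 14066578 to 14768126 counts in the WT group. Expression is given as counts and as CPM, counts relative to a library size scaled with edgeR's TMM factors, and 3 counts, the one-sided 95% upper limit that a count of 0 allows, equal 0.205 to 0.245 CPM. Such limits cover counting error only. The targeted gene Mtor had 883, 983 and 908 counts in mTOR-/- replicates 1 to 3 and 980, 875 and 929 counts in WT replicates 1 to 3, so these whole-gene counts overlapped between groups and do not check the genotype, and mTOR-/- is used below as the label. The study itself typed its mice by PCR and states that it verified the loss of mTOR in MDSCs. The lysozyme gene Lyz2 reached 1024 ± 153 CPM in mTOR-/- and 3281 ± 840 CPM in WT libraries (SD, n = 3 each). The mTOR-/- replicate 3 library stood apart from the others, with correlations of 0.952 and 0.955 to the other mTOR-/- libraries against 0.973 between those (Pearson's r across 12537 genes, a description), and values without it are given where it decides a result.

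Of the identity genes, Id2 and Irf4 were abundant, and the other 8, among them all those most restricted to dendritic cells, were low or not counted. Levels of different genes were compared per length, as TMM CPM per kilobase of the longest GENCODE M21 transcript. On that scale Id2 reached 78.5 ± 9.70 in the mTOR-/- group and 74.0 ± 10.3 in the WT group (SD, n = 3 each). Irf4 followed at 48.8 ± 0.818 and 37.2 ± 1.43. Tcf4 was at 3.31 ± 1.15 and 3.52 ± 0.194, and Batf3 was at 3.22 ± 1.93 and 2.497 ± 0.825. Clec9a, Zbtb46 and Flt3 came next, with means over 6 libraries of 1.10, 0.752 and 0.445. Cd209a and Xcr1 were at 0.0649 and 0.0200, and Siglech had no counts. The steps from Id2 to Irf4 and from Irf4 to Tcf4 were larger than the spread between libraries. The ranges of Tcf4 and Batf3 overlapped in each group, as did those of Clec9a and Zbtb46, whereas those of Batf3 and Clec9a were apart in both groups. Zbtb46 and Flt3 overlapped in the WT group and not in the mTOR-/- group.

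**Figure D1:**
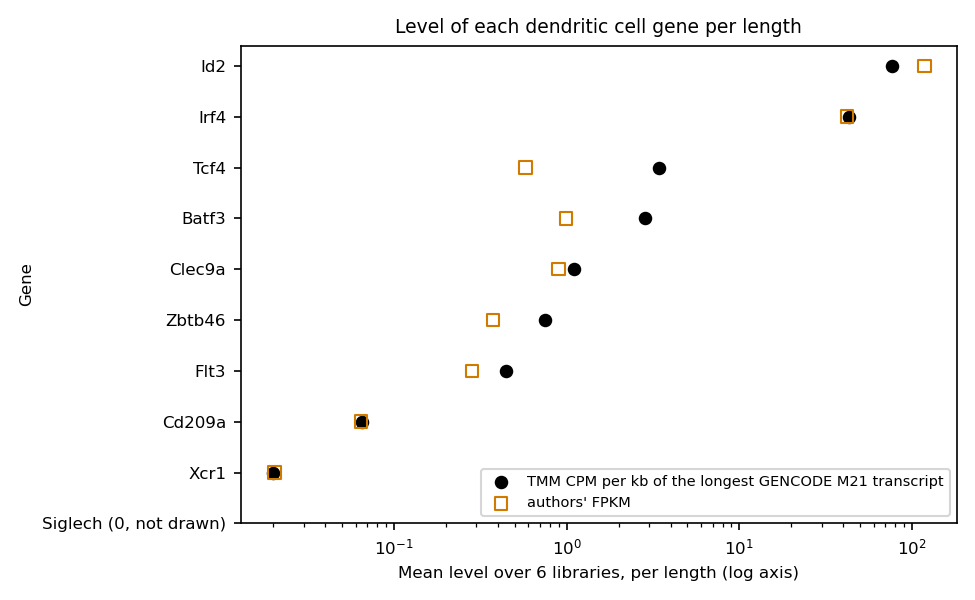
Mean level of each identity gene over 6 libraries, per length, on a log axis. Filled circles are TMM CPM per kilobase of the longest GENCODE M21 transcript and open squares are the FPKM values deposited by the authors. Id2 and Irf4 lie far above the other genes on both scales, while Tcf4 ranks 3 on the first and 5 on the second.

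The FPKM values deposited by the authors gave the same order except for Tcf4, Batf3 and Clec9a. Tcf4 ranked 5 in FPKM, with a mean of 0.578, and 3 per kilobase of its longest transcript. The deposited counts and FPKM imply a length of 50628 bases for Tcf4, whereas its longest annotated transcript has 8577 bases. For Irf4 the implied and annotated lengths were 4857 and 4764 bases. They also differed for Batf3 (3193 and 1110 bases) and Zbtb46 (10631 and 5309 bases), and the other way for Id2 (1270 and 1969 bases). The place of Tcf4 among the low genes in the plot of levels per length is thus set by the lengths used for it and its neighbours.

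To show the regulatory sequence of the genes on which the results turn, the 250 bases before the start site are printed for Irf4, the identity gene with the clearest difference between groups, Id2, the most abundant, and the cDC1 pair Batf3 and Clec9a. The sequences are from RefSeq (GRCm38.p6), in a promoter table that matched 9 of the 10 genes, all but Tcf4. They read 5′ to 3′ on the gene's strand. The windows are chr13:30748983-30749232 (plus strand) for Irf4, chr12:25096093-25096342 (minus strand) for Id2, chr1:191098164-191098413 (plus strand) for Batf3 and chr6:129408612-129408861 (plus strand) for Clec9a. The start sites are those of RefSeq and do not all match the other annotations. The Batf3 window lies inside the deposited bounds of Batf3 (191097847 to 191108945), and the last bases of the Irf4 window lie inside those of Irf4. The Id2 window lies inside the GENCODE M21 bounds of Id2 (25093799 to 25097140). Capitals mark matches, on either strand, to the E-box CANNTG, which E proteins such as TCF4 bind unless ID2 holds them off DNA, or to GAGGAA, a core of sites for the myeloid factor PU.1.
Irf4: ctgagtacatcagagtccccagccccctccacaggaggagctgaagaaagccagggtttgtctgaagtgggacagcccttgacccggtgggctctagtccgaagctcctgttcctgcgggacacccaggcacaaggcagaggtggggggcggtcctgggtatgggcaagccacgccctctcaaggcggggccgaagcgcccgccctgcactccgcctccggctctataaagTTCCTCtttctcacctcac
Id2: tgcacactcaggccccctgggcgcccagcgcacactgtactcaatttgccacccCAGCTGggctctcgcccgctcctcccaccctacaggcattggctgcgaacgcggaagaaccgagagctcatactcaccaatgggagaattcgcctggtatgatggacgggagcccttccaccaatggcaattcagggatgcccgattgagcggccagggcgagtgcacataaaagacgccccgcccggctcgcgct
Batf3: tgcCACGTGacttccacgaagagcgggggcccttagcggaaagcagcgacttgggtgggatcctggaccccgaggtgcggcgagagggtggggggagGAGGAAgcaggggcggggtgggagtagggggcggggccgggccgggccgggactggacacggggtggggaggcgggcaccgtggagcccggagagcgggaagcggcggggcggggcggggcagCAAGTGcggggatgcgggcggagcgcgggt
Clec9a: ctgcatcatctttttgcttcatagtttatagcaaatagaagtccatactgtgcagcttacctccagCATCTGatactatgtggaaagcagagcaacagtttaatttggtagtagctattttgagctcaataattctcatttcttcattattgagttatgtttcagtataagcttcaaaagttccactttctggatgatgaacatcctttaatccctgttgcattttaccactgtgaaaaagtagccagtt
The Irf4 window held 1 match to GAGGAA and 0 to the E-box. Id2 and Clec9a each held 1 E-box, and Batf3 held 2 E-boxes and 1 match to GAGGAA. Of all 32851 promoter windows of this length, 66.2% held an E-box and 23.3% held GAGGAA. The AP-1 site TGANTCA, to which BATF proteins bind with JUN partners, was in 6.7% of all windows and in 0 of these 4. All motifs were searched on both strands.

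Between groups, 7 of the 10 identity genes passed the filter on low counts. The test here was edgeR's quasi-likelihood test with Benjamini-Hochberg adjustment, whereas the study normalized its counts with DESeq2. Of the 7, 0 met the study's thresholds for a differentially expressed gene (DEG), adjusted p under 0.05 and at least 2-fold either way. Of all 12537 tested genes, 1.69% met them, 1.04% higher and 0.654% lower in the mTOR-/- group. With any fold change, 1 of the 7, Irf4, was past the adjusted p, where 4.04% of all tested genes were. DESeq2 also made 0 DEGs among the identity genes, and at an unadjusted p under 0.05 edgeR counted 1, again Irf4, where 21.2% of all tested genes were past that mark. The median log2 fold change (mTOR-/- over WT) of the 7 genes was 0.09, and that of all tested genes was 0.00. Because the identity genes were chosen with this comparison known, nothing further is read from these counts.

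**Figure D2:**
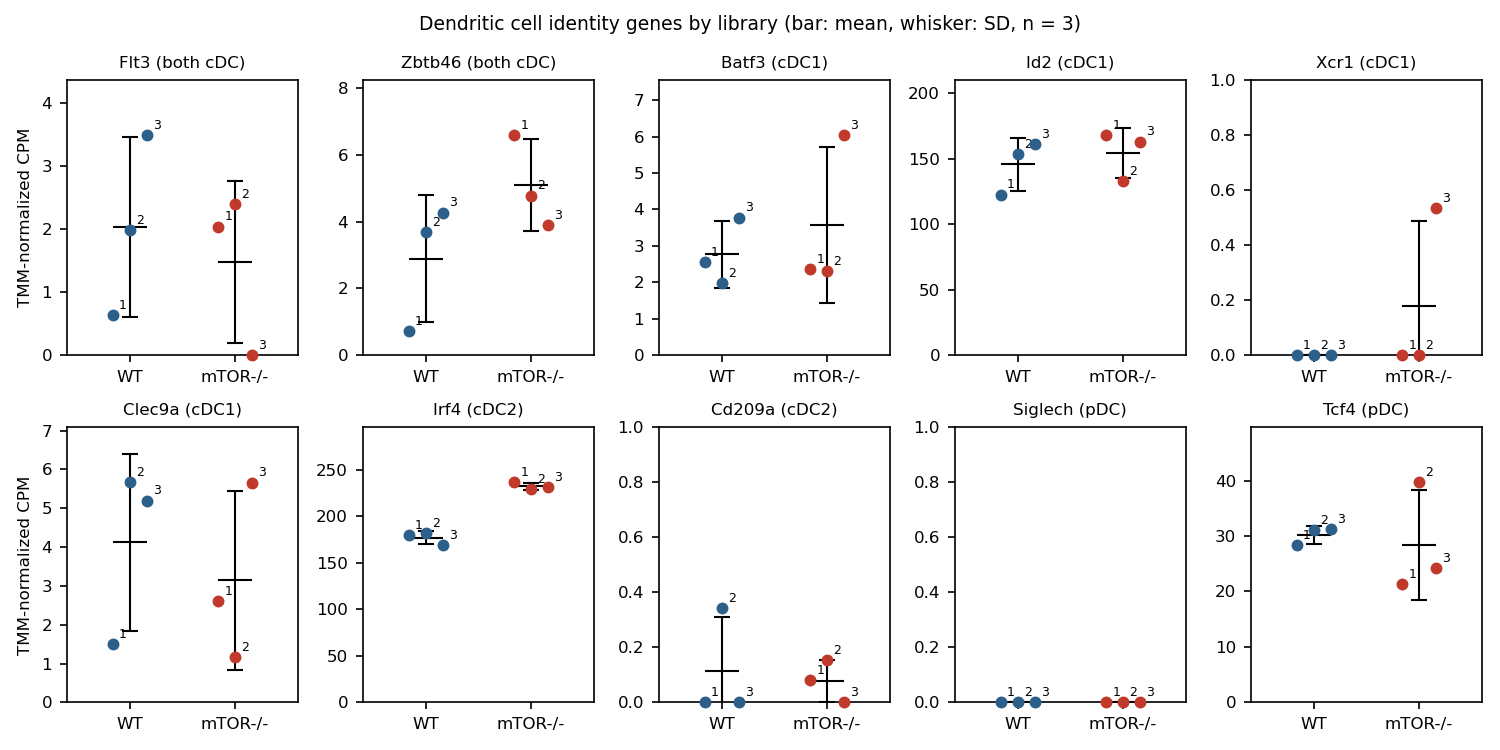
TMM-normalized CPM of the 10 identity genes in each library, with the replicate number beside each point, the group mean as a bar and the SD as a whisker (n = 3). The groups separate in Irf4, while the other genes overlap, Siglech lies at 0 throughout, and Flt3 lies at 0 in mTOR-/- replicate 3.

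Irf4 (ENSMUSG00000021356, chromosome 13, 30749226 to 30766927) encodes the interferon regulatory factor on which cDC2 depend, and macrophages and B-lineage cells use it too. It had 2904, 2967 and 3026 counts in mTOR-/- replicates 1 to 3 and 2527, 2668 and 2378 counts in WT replicates 1 to 3. In CPM it was at 237, 229 and 231 in mTOR-/- replicates 1 to 3 and at 180, 182 and 169 in WT replicates 1 to 3. Every mTOR-/- library lay above every WT library, and the spread within each group was small. Of all tested genes, 28.4% had groups that did not overlap. The log2 fold change of Irf4 was 0.39 ± 0.08 (SE), a 1.31-fold difference. It lay between 0.36 and 0.41 in the alternatives tried.

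Cd209a (ENSMUSG00000031494, chromosome 8, 3743395 to 3748984), the lectin paired with Irf4 here, was at or near the limit of counting. It had 1, 2 and 0 counts in mTOR-/- replicates 1 to 3 and 0, 5 and 0 counts in WT replicates 1 to 3. A difference between groups was not detectable at this depth. Cd209a also has close paralogs in the Cd209 cluster, among which counting can split reads.

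Of the cDC1 genes, Id2 (ENSMUSG00000020644, chromosome 12, 25093801 to 25096092) is an inhibitor of E proteins that many leukocytes express. It had 2063, 1720 and 2131 counts in mTOR-/- replicates 1 to 3 and 1726, 2245 and 2262 counts in WT replicates 1 to 3. The groups overlapped, at 155 ± 19.1 CPM and 146 ± 20.3 CPM (SD, n = 3 each), with a log2 fold change of 0.09 ± 0.13 (SE).

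Batf3 (ENSMUSG00000026630, chromosome 1, 191097847 to 191108945), the AP-1 family factor that cDC1 need to develop, had 29, 30 and 79 counts in mTOR-/- replicates 1 to 3 and 36, 29 and 53 counts in WT replicates 1 to 3. Replicate 3 of the mTOR-/- group was the highest library, and the other mTOR-/- libraries lay within the WT range. The log2 fold change of Batf3 was 0.37 ± 0.49 (SE) and became -0.25 without that library.

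Clec9a (ENSMUSG00000046080, chromosome 6, 129408862 to 129424763), a receptor for actin exposed on dead cells, had 32, 15 and 74 counts in mTOR-/- replicates 1 to 3 and 21, 83 and 73 counts in WT replicates 1 to 3. Levels varied 4.89-fold among the mTOR-/- libraries and 3.80-fold among the WT libraries, and the groups overlapped over nearly that whole range. Its log2 fold change of -0.39 ± 0.63 (SE) was -1.14 without mTOR-/- replicate 3 and -0.01 without mTOR-/- replicate 2. The first bases of Clec9a overlap the end of Clec1b on the same strand, and reads there cannot be assigned to either gene alone. Clec1b, chosen after its values were seen, had 42, 17 and 56 counts in mTOR-/- replicates 1 to 3 and 2, 36 and 38 counts in WT replicates 1 to 3, so it too was lowest in replicate 2 of the first group and in replicate 1 of the second.

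Xcr1 (ENSMUSG00000060509, chromosome 9, 123852315 to 123862029), the chemokine receptor that most narrowly marks cDC1, had counts in mTOR-/- replicate 3 alone. It had 7 counts there (two-sided 95% exact Poisson interval 2.81 to 14.4) and 0 in the other 5 libraries. That library was also the highest of its group in Batf3 and Clec9a, but not in Id2 (163 CPM against 168 CPM in mTOR-/- replicate 1). Of the 6 tested genes of the other cDC1 list, it was the lowest of all libraries in 3 and the highest in 1. Over all tested genes it was the lowest in 27.7% and the highest in 28.7%. Snx22, of the other cDC1 genes, had 0 counts in every library.

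Of the genes shared by both cDC lineages, Flt3 (ENSMUSG00000042817, chromosome 5, 147330741 to 147400489) encodes the receptor that drives dendritic cell development and is also carried by multipotent progenitors. It had 25, 31 and 0 counts in mTOR-/- replicates 1 to 3 and 9, 29 and 49 counts in WT replicates 1 to 3. The count of 0 in mTOR-/- replicate 3 allows up to 3 counts, or 0.229 CPM, against 2.04 and 2.39 CPM in replicates 1 and 2. In the WT group Flt3 varied 5.46-fold. Its log2 fold change was -0.46 ± 1.00 (SE), and the sign depended on the libraries, from -1.01 without mTOR-/- replicate 2 to 0.12 without mTOR-/- replicate 3 and 0.17 without WT replicate 3.

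Zbtb46 (ENSMUSG00000027583, chromosome 2, 181387762 to 181459426), a transcription factor gene that separates cDC from monocytes and macrophages and is also used by endothelium, had 81, 62 and 51 counts in mTOR-/- replicates 1 to 3 and 10, 54 and 60 counts in WT replicates 1 to 3. Replicate 1 of the WT group stood below all others, and the remaining libraries of both groups overlapped. The log2 fold change of Zbtb46 was 0.81 ± 0.56 (SE), and it was 0.35 without WT replicate 1. Flt3 and Zbtb46 were both lowest of the mTOR-/- group in replicate 3, where Flt3 was not counted and Zbtb46 was at 3.90 CPM. Both were lowest of the WT group in replicate 1. Over all tested genes, mTOR-/- replicate 3 was the lowest of the 6 libraries in 27.7% and WT replicate 1 in 15.4%.

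Of the pDC genes, Siglech (ENSMUSG00000051504, chromosome 7, 55768178 to 55778925), the surface lectin that marks mouse pDC, had 0 counts in each of the 6 libraries, which allows at most 0.205 to 0.245 CPM. Tcf4 (ENSMUSG00000053477, chromosome 18, 69343356 to 69689079), the E protein that maintains pDC and is found in other leukocytes as well, had 262, 514 and 316 counts in mTOR-/- replicates 1 to 3 and 398, 455 and 439 counts in WT replicates 1 to 3. The WT libraries lay close together, while the mTOR-/- libraries lay on both sides of them. Its log2 fold change was -0.09 ± 0.22 (SE). The pDC pair thus rests on Tcf4 alone, and Siglech was not detected at this depth.

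Of the markers narrower than Id2, Irf4 and Tcf4, which other leukocytes share, Xcr1, Cd209a and Siglech had at most 7 counts in any library. Clec9a had 15 to 83 counts, Zbtb46 had 10 to 81, Batf3 had 29 to 79 and Flt3 had 0 to 49. In RNA from whole sorted populations, fewer cells of a type and less RNA per cell cannot be told apart.

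Other dendritic cell genes were taken from 5 lists, which were also chosen with earlier results of these data known. Their p-values and shares are therefore a description. The lists held 67 genes in all, of which 55 were tested. Of these, 6 rose and 1 fell at an adjusted p under 0.05, where 2.18% of all tested genes rose and 1.87% fell. DEGs were 3 of the 55, all up-regulated, against 1.04% of all tested genes. These were Clec10a, Ccr7 and Cacnb3. The DEGs were 8 with DESeq2, 5 with upper-quartile factors, 6 with no filter on low counts. Clec10a alone was left as a DEG without mTOR-/- replicate 1, mTOR-/- replicate 3, WT replicate 2 or WT replicate 3, while the DEGs were Clec10a and Klra17 without mTOR-/- replicate 2 and were Clec10a, Cacnb3, Sirpa and Tlr7 without WT replicate 1.

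**Figure D3:**
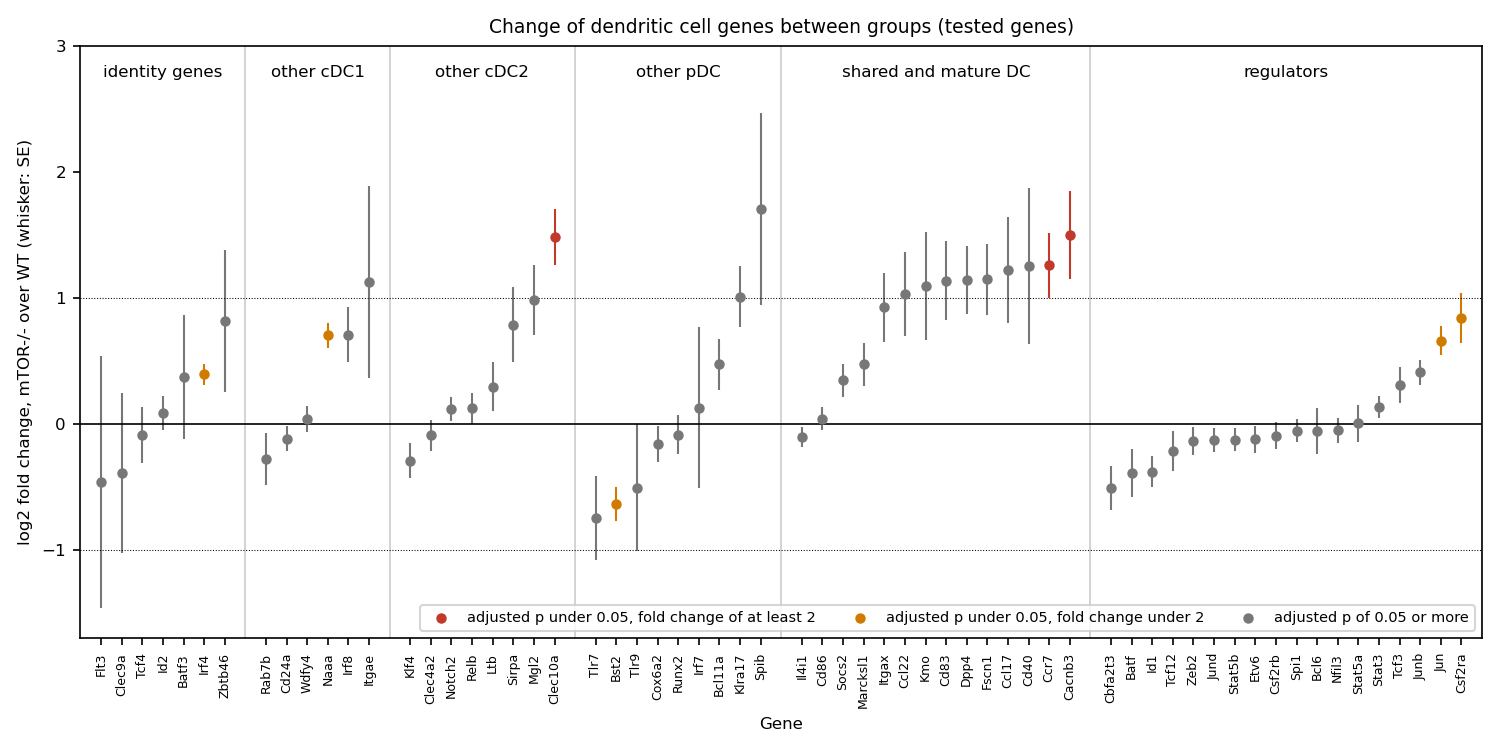
Log2 fold change (mTOR-/- over WT, whisker: standard error) of the 7 tested identity genes and of the 55 tested genes of the other lists, with dotted lines at a fold change of 2. Red marks DEGs, orange an adjusted p under 0.05 with a smaller fold change and grey the rest. The shared and mature genes lie mostly above 0, whereas the identity genes and the regulators lie around it.

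The list of genes shared by dendritic cells or switched on when they mature held 14 genes, all tested. Of these, 13 had a log2 fold change above 0 and 1 below, where 50.6% of all tested genes had one above 0. The list held 2 DEGs, both up-regulated, and 11 genes were higher at an unadjusted p under 0.05 (edgeR), where 11.7% of all tested genes were. Their median log2 fold change was 1.11, that of all tested genes 0.00. In 12 of the 14 genes the groups did not overlap, where this held for 28.4% of all tested genes. The mTOR-/- libraries lay above the WT libraries in 11 of the 12 and below them in Il4i1, an amino acid oxidase gene. Because the list was chosen with earlier results known, these shares describe it and are not an independent test.

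Ccr7, the chemokine receptor that takes mature dendritic cells to lymph nodes, had 715, 746 and 787 counts in mTOR-/- replicates 1 to 3 and 191, 431 and 430 counts in WT replicates 1 to 3. It was at 58.7 ± 1.36 CPM and 24.5 ± 9.52 CPM (SD, n = 3 each), a log2 fold change of 1.26 ± 0.26 (SE; edgeR adjusted p = 0.0314). Every mTOR-/- library lay above every WT library, and WT replicate 1 lay lowest. Without WT replicate 1 the log2 fold change was 0.96, below the fold change threshold, and the adjusted p was 0.0145. It was 0.0605 to 0.0858 when any other library was left out.

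Cacnb3, a calcium channel subunit gene found in maturing dendritic cells, had 506, 507 and 801 counts in mTOR-/- replicates 1 to 3 and 107, 319 and 292 counts in WT replicates 1 to 3. Its log2 fold change was 1.496 ± 0.35 (SE; edgeR adjusted p = 0.0483). Both groups had a library far from the others, replicate 3 on the mTOR-/- side and replicate 1 on the WT side, and it stayed a DEG without WT replicate 1 (edgeR adjusted p = 0.04996) and not without any other library.

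The chemokine gene Ccl22 had the most counts of the list, with 4599, 4793 and 4243 counts in mTOR-/- replicates 1 to 3 and 1061, 2985 and 3434 counts in WT replicates 1 to 3. Its log2 fold change of 1.03 ± 0.34 (SE) did not pass the test (adjusted p = 0.126, edgeR). Cd86, a costimulatory ligand gene, came next by counts and was at 199 ± 6.93 CPM and 194 ± 14.8 CPM (SD, n = 3 each), with groups that overlapped (log2 fold change 0.04 ± 0.09, SE; edgeR adjusted p = 0.839). Itgax, which encodes the dendritic cell integrin CD11c and was named after its values were seen, was at 172 ± 38.4 CPM and 90.7 ± 34.3 CPM (SD, n = 3 each; log2 fold change 0.92, adjusted p = 0.0987, edgeR).

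In WT replicate 1, 10 of the 14 genes were at their lowest of the 6 libraries, which was the case for 15.4% of all tested genes. The summed level of the list was 619 CPM in that library, 899 and 898 CPM in WT replicates 2 and 3, and 1167 to 1219 CPM in the mTOR-/- libraries. Without WT replicate 1 the median log2 fold change of the list was 0.77 and without each of the other libraries it lay between 1.08 and 1.21.

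**Figure D4:**
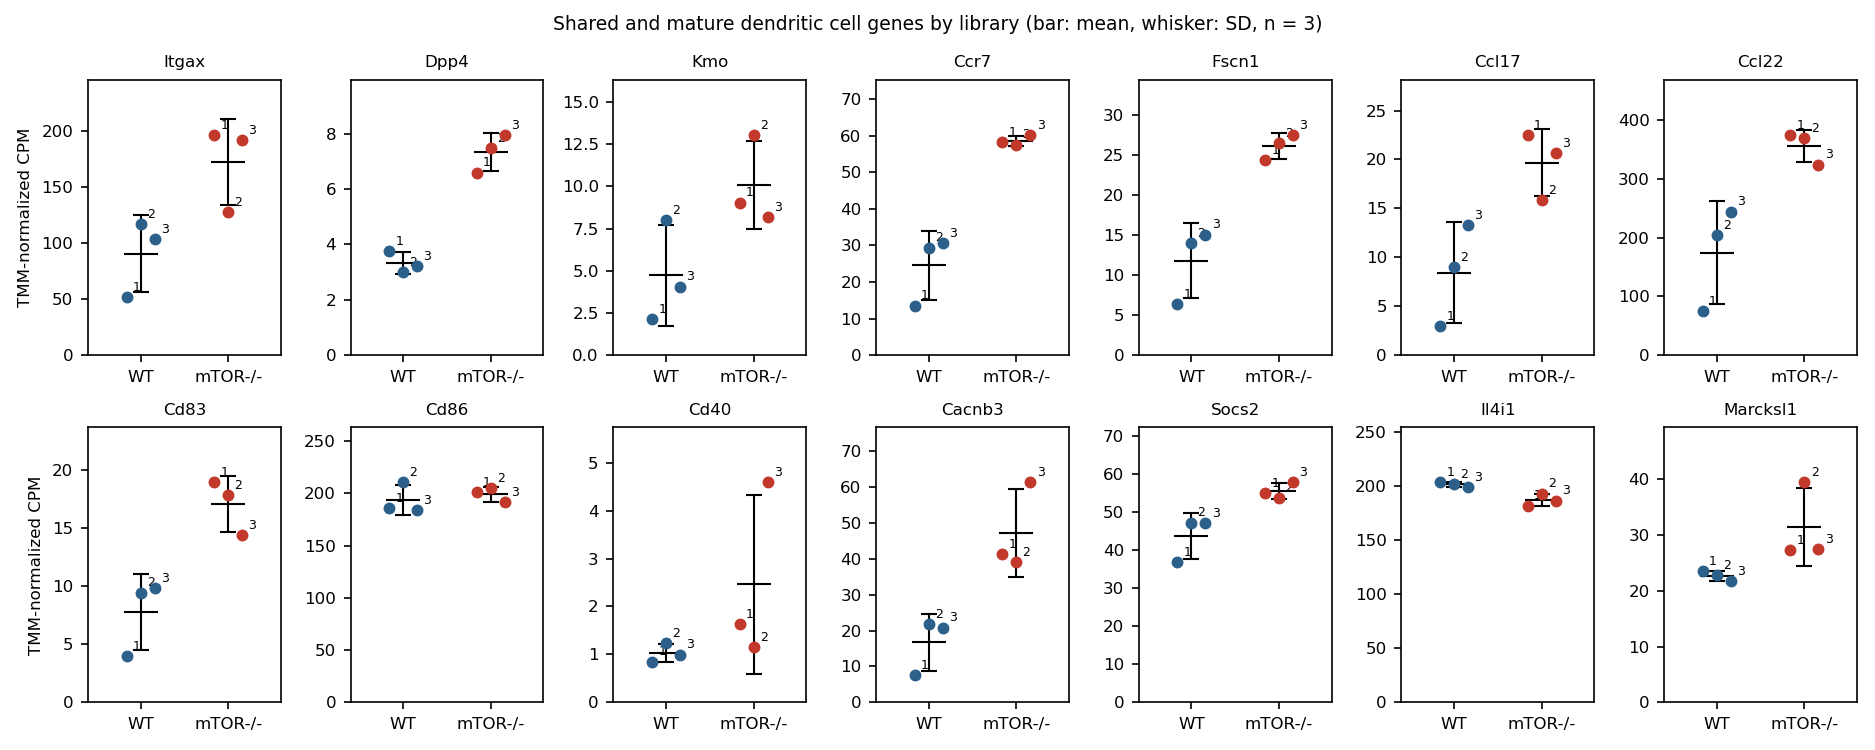
TMM-normalized CPM of the 14 shared and mature dendritic cell genes in each library, with the replicate number beside each point, the group mean as a bar and the SD as a whisker (n = 3). The groups do not overlap in 12 of the 14 panels, Cd86 and Cd40 being the others, and WT replicate 1 is often the lowest point.

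Of the other cDC2 genes, 8 of 10 were tested, with 1 DEG and a median log2 fold change of 0.21. Clec10a, a galactose-type lectin of cDC2 and macrophages, had 1620, 1149 and 2001 counts in mTOR-/- replicates 1 to 3 and 498, 817 and 597 counts in WT replicates 1 to 3. It was at 125 ± 32.8 CPM and 44.6 ± 10.4 CPM (SD, n = 3 each), a log2 fold change of 1.48 ± 0.22 (SE; edgeR adjusted p = 0.00724). The groups did not overlap, and the adjusted p stayed under 0.05 in all 12 other fits, at 0.0432 or less.
Sirpa, an inhibitory receptor gene of myeloid cells with the most counts of this list, had 9493, 8080 and 8996 counts in mTOR-/- replicates 1 to 3 and 9208, 4137 and 3847 counts in WT replicates 1 to 3. WT replicate 1 was here among the mTOR-/- libraries, and the difference did not pass the test (log2 fold change 0.78 ± 0.30, SE; edgeR adjusted p = 0.175). Notch2, a receptor gene needed by splenic cDC2, had a log2 fold change of 0.11 ± 0.10 (SE; edgeR adjusted p = 0.526).

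Of the other cDC1 genes, 6 of 10 were tested, with 0 DEGs and 1 gene past the adjusted p. This was Naaa, a lysosomal amidase gene, with 1735, 1564 and 1732 counts in mTOR-/- replicates 1 to 3 and 1054, 1214 and 1193 counts in WT replicates 1 to 3. Its log2 fold change was 0.70 ± 0.10 (SE; edgeR adjusted p = 0.00692), past the threshold in all 12 other fits. Cd24a and Wdfy4, the genes of the list with the highest CPM before any correction for length, had log2 fold changes of -0.12 ± 0.10 (SE; edgeR adjusted p = 0.549) and 0.04 ± 0.10 (SE; edgeR adjusted p = 0.880). Irf8, the transcription factor gene of the cDC1 lineage, was named after its values were seen and was at 60.1 ± 1.82 CPM and 36.8 ± 11.9 CPM (SD, n = 3 each; adjusted p = 0.109, edgeR). At an unadjusted p under 0.05, 2 genes of the list were higher and 0 lower, where 11.7% and 9.52% of all tested genes were.

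Of the other pDC genes, 9 of 13 were tested, and Bst2, the tetherin gene recognised by pDC antibodies and induced by interferon in other cells, fell. It had 802, 835 and 622 counts in mTOR-/- replicates 1 to 3 and 1270, 1270 and 1385 counts in WT replicates 1 to 3, a log2 fold change of -0.64 ± 0.14 (SE; edgeR adjusted p = 0.0367). The fold change was under 2, and the adjusted p was under 0.05 in 2 of the 6 leave-one-out fits. Runx2, a transcription factor gene and the highest of the list in CPM, though not per length, had overlapping groups (log2 fold change -0.08 ± 0.15, SE; edgeR adjusted p = 0.795). The list had 0 DEGs. At an unadjusted p under 0.05 (edgeR) it had 2 genes higher and 1 lower, where 11.7% and 9.52% of all tested genes were.

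Among 20 regulators of dendritic cell development, 18 were tested, 2 rose and 0 fell at an adjusted p under 0.05, and the median log2 fold change was -0.08. Jun, whose protein pairs with BATF3 at AP-1 sites, had 5338, 6314 and 7468 counts in mTOR-/- replicates 1 to 3 and 4674, 4734 and 4087 counts in WT replicates 1 to 3, with a log2 fold change of 0.66 ± 0.12 (SE; edgeR adjusted p = 0.0161). Csf2ra, the alpha chain of the GM-CSF receptor, rose by 0.84 on the log2 scale ± 0.20 (SE; edgeR adjusted p = 0.0477). It had 8533, 9284 and 15487 counts in mTOR-/- replicates 1 to 3 and 6853, 7771 and 6074 counts in WT replicates 1 to 3, and mTOR-/- replicate 3 was the highest of the 6. The adjusted p was under 0.05 for Jun in 3 and for Csf2ra in 2 of the 6 leave-one-out fits. Csf2rb, its signalling partner and the gene of the list with the most counts, had a log2 fold change of -0.09 ± 0.11 (SE; edgeR adjusted p = 0.656).

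Markers of other cells were set beside these results, in lists also chosen with earlier results of these data known. At an adjusted p under 0.05 (edgeR), 2.18% of all tested genes rose and 1.87% fell. At an unadjusted p under 0.05 (edgeR), 9.52% were lower. Monocyte markers were counted in every library, and 4 of the 6 tested passed the adjusted p, where 4.04% of all tested genes did. Cd14, Csf1r and F13a1 rose, with log2 fold changes of 0.95, 0.50 and 1.12 (adjusted p = 0.00128, 0.0136 and 0.0223, edgeR), while Ly6c2, a gene of the Ly6C antigen used in the gate, fell by 1.00 on the log2 scale (adjusted p = 0.0426). Itgam, the gene of CD11b and the marker with the most counts, had a log2 fold change of -0.16 (adjusted p = 0.599, edgeR). Itgam had more than 1 row in the deposited counts, and the row with the most counts was used. Of 8 macrophage markers, 4 were tested and 0 passed at an adjusted p under 0.05, with 1 lower at an unadjusted p under 0.05. Adgre1 led them (log2 fold change -0.35, edgeR adjusted p = 0.145), the list summed to 404 to 542 CPM in the mTOR-/- group against 567 to 650 CPM in WT, and Vsig4 had 0 counts.
Of 10 neutrophil markers, 2 rose (Ly6g and S100a8) and 2 fell (Ltf and Ngp), against 2.18% and 1.87% of all tested genes. The summed level of these markers was 888 to 1051 CPM and 857 to 1144 CPM. S100a9, with the most counts of them, had a log2 fold change of 0.04 (edgeR adjusted p = 0.881). Ly6g, the gate's negative marker, had 173, 139 and 198 counts in mTOR-/- replicates 1 to 3 and 12, 35 and 71 counts in WT replicates 1 to 3. Of 6 mast cell and basophil markers, Cpa3, Gata2 and Mcpt8 fell, against 1.87% of all tested genes. The summed level of the 6 was 357 to 450 CPM against 1125 to 1209 CPM. Kit fell among the 5 stem and progenitor markers (131 to 150 CPM summed against 210 to 222 CPM). Il7r fell among 6 markers of T cells, natural killer cells and innate lymphoid cells (56.8 to 67.4 CPM against 87.9 to 111 CPM), of which Cd3e and Ncr1 had 0 counts.
Summed levels (mTOR-/- first) were 3.32 to 6.93 CPM and 2.27 to 3.21 CPM for B cell markers, 0.765 to 1.24 CPM and 2.56 to 4.13 CPM for erythroid markers, and 10.9 to 14.0 CPM and 10.02 to 25.0 CPM for endothelial and stromal markers. Cd79b, Hbb-bs and Kdr led these lists in CPM, in that order, and Car1 and Cxcl12 had 0 counts. None of the 3 lists had a gene past the adjusted p (edgeR), and Hbb-bs alone was lower at an unadjusted p under 0.05. The part of these other cells in the levels of the identity genes was not tested.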

How the data were processed

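RNA-seq of WT and mTOR-/- M-MDSCs (3 libraries each) was analysed from read counts per gene that the authors deposited without normalization. FPKM values deposited by the authors were used for levels between genes only. The study's methods name Bowtie2, HTSeq and mm10, whereas the submitters' processing notes list HISAT2 2.0.4, StringTie 1.3.0, GRCm38.p4 and mm9. Strand setting and annotation release are not given in the sources used here, so reads of overlapping or antisense genes may not be told apart. Positions are those of the deposited table, and 7 of the 10 identity genes had the same bounds in GENCODE M21 (GRCm38). Of 36 per-sample columns, 24 repeat the others and were not used, nor were the authors' fold changes and p-values.

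The software was edgeR 4.0.16 and DESeq2 1.42.0 under R 4.3.3. Genes passed filterByExpr (minimum count 10, minimum total 15). Groups were compared by edgeR's quasi-likelihood F test with TMM factors (0.986 to 1.01), without a block, and Benjamini-Hochberg adjustment over 12537 genes. Standard errors come from the same fit. Log2 CPM used a prior count of 2. The method was also run on simulated data, in which the changed genes differed more than the identity genes do. It therefore does not measure the power to find differences of their size. The identity genes and gene lists were chosen with earlier results of these data known. Genes named were the identity genes, Mtor, Lyz2, list genes past the adjusted p, the 2 with the highest mean CPM of each dendritic cell list, the marker with the highest mean CPM of each other list and list genes with 0 counts. Alternatives were DESeq2, RLE and upper-quartile factors, no filter, at least 10 counts in every library, dropping the fold change threshold, leaving out 1 library at a time, and the replicate number as a block. The lengths from GENCODE M21 were chosen after seeing the data.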

Additional observations from a re-analysis of the deposited data

How the results depend on the processing

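All identity genes stayed below the thresholds for DEGs in every alternative with a fold change threshold, and with no fold change threshold 1, Irf4, was counted. Its direction was the same in 12 of 12 other fits, and its adjusted p was under 0.05 in 6 of them, 1 of which left out a library. These fits reuse the same libraries, and Irf4 was chosen with this comparison known. They describe how its values move with the settings and are not independent support. The sign of the fold change turned in 2 alternatives for Flt3, 1 for Batf3, 1 for Id2 and 2 for Tcf4, none of them past the test. DEGs over all genes numbered 212, and 357 with DESeq2, 507 with no fold change threshold and 114 to 229 with 1 library left out (114 without WT replicate 2, 120 without WT replicate 3 and 128 without WT replicate 1). Other dendritic cell genes called numbered 3, and 8 with DESeq2, 5 with upper-quartile factors, 6 with no filter, 7 with no fold change threshold and 1 to 4 with 1 library left out. With CPM per kilobase, Tcf4, Batf3 and Clec9a ranked 3, 4 and 5 in place of 5, 3 and 4 in FPKM. The cause of these changes was not tested, except that the fold change threshold and the gene lengths act by construction. Samples with the same replicate number did not deviate together (correlations of -0.076, -0.025 and -0.061). With 3 libraries per group, taken as deviations from the group mean, this check cannot tell whether libraries were prepared in pairs. The replicate block gave 164 DEGs, 0 identity genes and 4 other dendritic cell genes. Counts under about 100 limit Flt3, Zbtb46, Batf3 and Clec9a, and counts near 0 limit Xcr1, Cd209a and Siglech.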
